A study of Mus musculus with 6 samples.

Results

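Egr1, Egr2, Egr3, Ier2, Ier3, Ier5, Nr4a1, Klf2, Klf4 and Klf6 are 10 immediate early genes, picked by name from the 54532 genes in a table of FPKM (RNA-seq fragments scaled to gene length and sequencing depth) of mouse peritoneal macrophages. The set was selected on results of these same libraries, so its levels, fold changes and counts of differentially expressed genes, the last read off a fit of the whole table, are given as a description and support nothing. Each of the 10 names was found once in the table. Of these, 9 passed the filter for testing, a mean of at least 1 FPKM over the libraries, and Egr3 stayed below it.

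RNA-seq was run on wild-type peritoneal macrophages of C57BL/6J mice aged 6 to 8 weeks, elicited with thioglycolate and cultured overnight, in 3 groups of 2 libraries. Control cells received no treatment. Model cells received 500 ng/mL LPS, an endotoxin sensed by Toll-like receptor 4, for 5.5 h and then 2 mM ATP, the trigger of the NLRP3 inflammasome, for 0.5 h. MUS cells were given these agents and also 50 μM muscone, a macrocyclic ketone of musk, added 5 h after LPS and 0.5 h before ATP. LPS alone, ATP alone and muscone alone were not analysed here. The labels do not say whether the libraries of a group came from separate mice, so the spread between them may be technical.

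Immediate early genes are transcribed within minutes of a stimulus, without new protein synthesis, and most of their messenger RNAs are short-lived. Growth factors, Toll-like receptor ligands and extracellular nucleotides reach them through MAP kinases, which act on serum response factor (SRF) and its ETS partners at CArG boxes, and through CREB at cAMP response elements. EGR1, EGR2 and EGR3 are zinc finger factors that bind GC-rich sites, NR4A1 is an orphan nuclear receptor, and KLF2, KLF4 and KLF6 are zinc finger factors that bind GC-rich and CACCC sites. In macrophages, KLF2 is known to restrain NF-κB target genes and KLF6 to promote them, EGR2 is linked to alternative activation, and NR4A1 limits inflammatory transcription.

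The stretches below are shown because Egr2 and Nr4a1 had the largest upward differences from Model to MUS among the members tested, while Ier3 and Klf6 were high in both treated groups. RefSeq promoter sequences (GRCm38.p6) on the chromosome of Egr1 were left out, so no window of Egr1 was searched. The remaining sequences matched 7 of the 10 genes, with none for Egr3 and Ier2. Egr2 had 5 RefSeq starts, and only the window of the start nearest that of its first GENCODE transcript was searched. Each stretch covers 220 bases of the plus strand, from 250 to 31 bases before the RefSeq start used. They lie at chr10:67537619-67537838 for Egr2, chr15:101266596-101266815 for Nr4a1, chr17:35821463-35821682 for Ier3 and chr13:5861239-5861458 for Klf6. The Egr2 and Nr4a1 stretches lie inside the span of their genes, which also takes in transcripts that start upstream. Capitals mark motif matches.
Egr2: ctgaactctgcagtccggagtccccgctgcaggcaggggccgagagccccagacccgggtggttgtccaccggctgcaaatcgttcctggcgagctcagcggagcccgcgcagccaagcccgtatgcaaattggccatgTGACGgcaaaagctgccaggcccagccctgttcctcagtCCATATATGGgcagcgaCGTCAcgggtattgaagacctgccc
Nr4a1: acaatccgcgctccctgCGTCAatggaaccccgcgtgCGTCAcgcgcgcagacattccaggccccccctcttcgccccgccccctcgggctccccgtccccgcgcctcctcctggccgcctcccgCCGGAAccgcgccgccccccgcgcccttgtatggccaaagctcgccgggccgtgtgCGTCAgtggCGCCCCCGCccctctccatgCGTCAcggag
Ier3: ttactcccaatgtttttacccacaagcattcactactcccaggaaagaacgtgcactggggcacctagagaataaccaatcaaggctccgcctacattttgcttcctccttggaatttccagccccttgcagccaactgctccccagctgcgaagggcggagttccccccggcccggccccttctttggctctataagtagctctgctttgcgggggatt
Klf6: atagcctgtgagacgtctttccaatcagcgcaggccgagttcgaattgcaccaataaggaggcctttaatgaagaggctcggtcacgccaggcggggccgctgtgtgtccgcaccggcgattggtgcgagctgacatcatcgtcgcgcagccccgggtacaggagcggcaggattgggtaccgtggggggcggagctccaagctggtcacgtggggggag

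The search covered 7 motifs on both strands, a set chosen after the values were seen. They were the CArG box of SRF, TGACG (the core of the cAMP response element, CRE) and GCGTGGGCG or GCGGGGGCG (EGR site). The others were CCGGAA (ETS site), GGGRNYYYCC (NF-κB site), AAAGGTCA (NR4A site) and TGACTCA or TGAGTCA (AP-1 site). R stands for A or G, Y for C or T and N for any base. Looser forms of the NF-κB site were not searched. The Egr2 stretch held 1 CArG box, 72 to 63 bases before the start, between 2 CRE cores. A CArG box occurred in 1.3% and a CRE core in 14.9% of 32524 distinct promoter windows of this length on the chromosomes searched. The Nr4a1 stretch held 4 CRE cores, 1 EGR site and 1 ETS site, and an EGR site occurred in 2.46% and an ETS site in 9.53% of all windows. The windows of Klf2 and Klf4 each held 1 CRE core and 1 EGR site. Those of Ier3, Ier5 and Klf6 held none of the 7 motifs. NF-κB, NR4A and AP-1 sites of the forms searched, found in 4.38%, 1.19% and 4% of all windows, were in none of the 7 members' windows. No match overlapped another, and a match describes letters only.

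**Figure D1:**
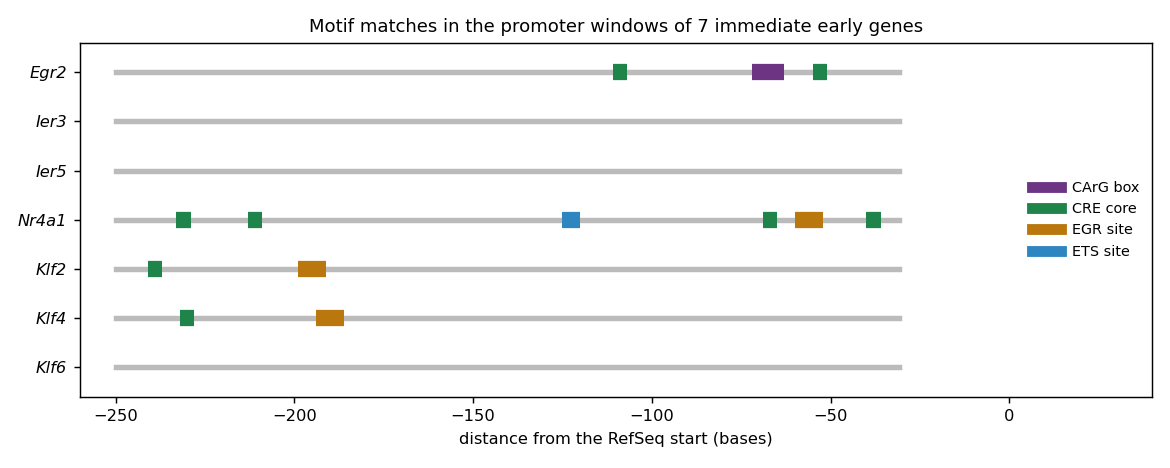
Motif matches in the promoter windows of 7 immediate early genes, by distance in bases before the RefSeq start. Grey lines are the 220-base windows and coloured blocks the matches. Egr2 alone among them holds a CArG box, Nr4a1 holds the most matches, and Ier3, Ier5 and Klf6 hold none.

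The libraries held between 15526321 and 17135442 fragments on genes, recovered from the FPKM and the gene lengths. The 8 macrophage markers all passed the filter, with a summed level between 9574 and 14283 FPKM in a library. Of the 6 neutrophil markers only S100a8 passed, while S100a9, Ly6g and Elane were at 0 in every library, and the list summed to between 13.7 and 30.7 FPKM in Control, 56.5 and 110 in Model and, in MUS, 50.3 and 64.0. The T cell, B cell, eosinophil, mast cell and mesothelial lists had at most 1 gene past the filter each and summed to at most 4.17 FPKM in a library. The part of these cells in the values below was not tested. Control replicate 2 stood apart in LPS response genes, with Tnf at 183 FPKM against 8.62 in Control replicate 1 and Il1b at 34.2 against 0.55. Among the 10 members, its values were between 0.358 times (Klf4) and 1.57 times (Ier3) those of Control replicate 1.

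The depth scale of the table also differs between groups. Relative to the fragment total it was 1.45 and 1.34 in the Control libraries, but 0.909 to 0.998 in the treated ones. Rescaling to the fragment total lowers the median log2 fold change of all genes by 0.44 in Model vs. Control and by 0.43 in MUS vs. Control, and moves it by 0.01 in MUS vs. Model. Fold changes against Control are therefore given under both scales for most members.

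Klf6 was the member with the highest level in every group. In Control the means ran from Klf6 (91.2 FPKM) through Egr2 (47.3), Ier5 (23.0), Ier2 (16.8), Ier3 (15.9), Klf2 (4.88), Klf4 (3.37), Egr1 (2.79) and Nr4a1 (1.35) to Egr3 (0.521). The replicate values of Ier3 overlapped those of Ier2 and of Ier5 there. Those of Klf4 overlapped those of Klf2 and of Egr1. In Model, Ier3 (176 FPKM) and Ier2 (159) stood next to Klf6 (454) and overlapped each other, and Egr2 overlapped Ier5. At the lower end, Nr4a1 overlapped both Klf2 and Klf4, which did not overlap each other. In MUS, Egr2 (84.4 FPKM) stood between Ier3 (114) and Ier2 (65.1) with no overlap, and Nr4a1 (9.62) overlapped Egr1 (12.9). The summed level of the members was 190 and 224 FPKM in Control, 1021 and 764 in Model, 782 and 694 in MUS, of which Klf6 made up between 38.8% and 58.3%.

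**Figure D2:**
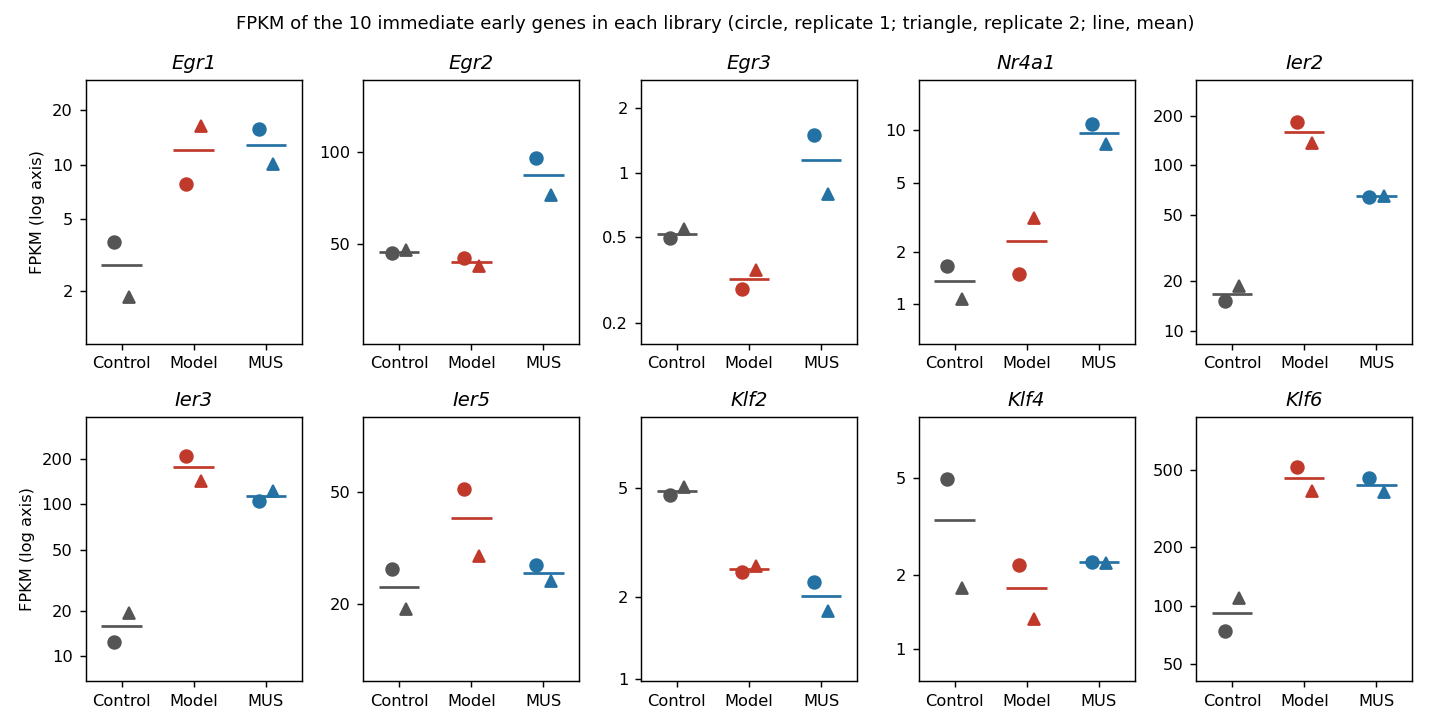
FPKM (log axis, its range set for each gene) of the 10 immediate early genes in the 6 libraries, with circles for replicate 1, triangles for replicate 2 and lines for the mean of 2. Nr4a1, Egr2 and Egr3 are highest in both MUS libraries, Ier2 and Ier3 are highest in both Model libraries, and Klf2 is highest in both Control libraries.

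Differentially expressed genes (DEGs) were defined by limma on log2(FPKM + 1), and needed both a log2 fold change beyond 1 in either direction and an adjusted p no higher than 0.05. In Model vs. Control, the comparison for the response to LPS and ATP, 4 of the 9 members tested met both criteria, all upregulated, against 9.5% of the 9794 genes tested that were upregulated and 5.56% that were downregulated. Both Model libraries lay above both Control libraries for 5 members and below them for 2, against 32.6% and 28.5% of all genes. The median log2 fold change was 0.76 for the members and 0.04 for all genes. These counts use the contrast that chose the genes and are given as a description. In MUS vs. Model, the comparison for muscone, limma called 0 members and 0 of all genes (0% upregulated and 0% downregulated), and limma-voom on the recovered fragments also called 0. At an unadjusted p under 0.05, 2 members were higher (Nr4a1 and Egr2) and 1 was lower (Ier2), against 2.61% and 5.81% of all genes. The MUS libraries lay above the Model libraries for 3 of the 9 and below for 4, against 21.2% and 21% of all genes. In MUS vs. Control, 5 of the 9 members were DEGs, all upregulated, against 11.3% of all genes upregulated and 8.91% downregulated, and 6 lay above and 1 below without overlap, against 39.6% and 33.8%. Without MUS replicate 1, 0 members met the criteria in that comparison, and without MUS replicate 2, 2 did (Ier3 and Nr4a1). The 3 comparisons share libraries, so they are not independent of each other. In bulk RNA, fewer cells of a type and less RNA per cell cannot be told apart.

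**Figure D3:**
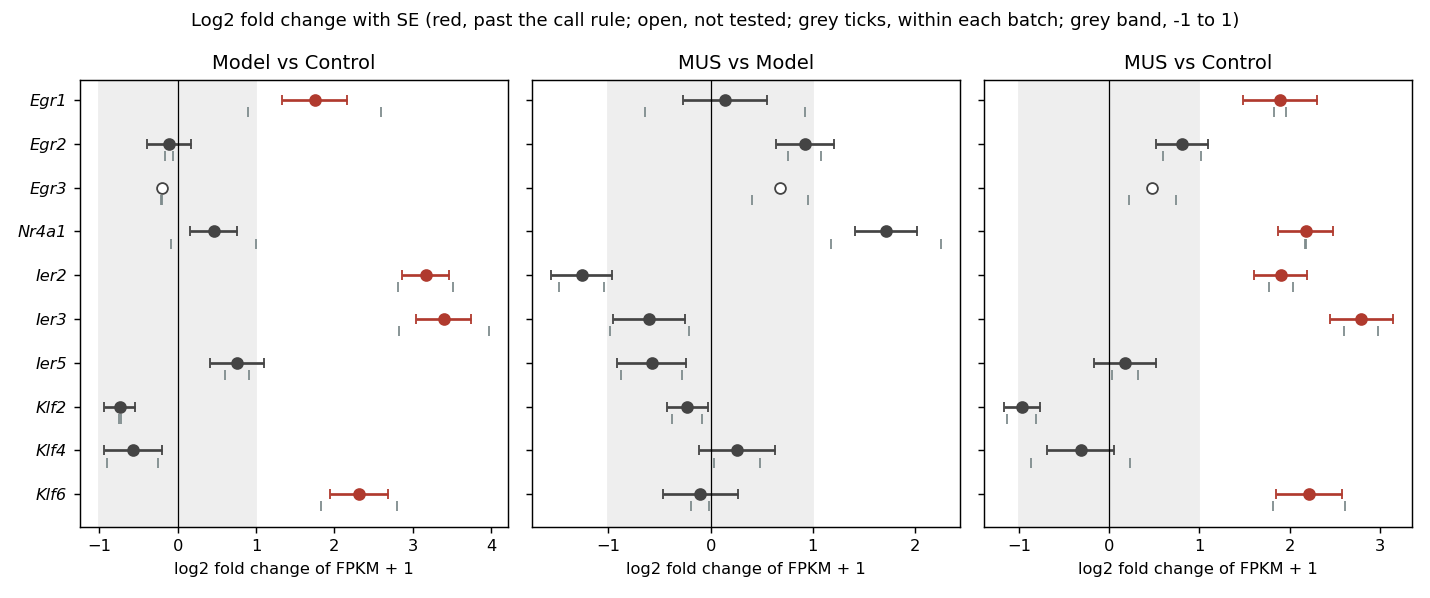
Log2 fold change of FPKM + 1 with its SE (bars) for the 10 genes in the 3 comparisons, with 2 libraries a group. Red points met the DEG criteria, the open point (Egr3) was not tested, and grey ticks give the fold change within each batch of the labels. In MUS vs. Model, Nr4a1 and Ier2 lie furthest out, at 1.72 and -1.26, and no point is red.

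Nr4a1 (ENSMUSG00000023034, chr15:101254269-101274795) and the EGR genes code for the transcription factors described first. Positions are of GRCm38, as in the table. Nr4a1 was at 1.65 and 1.06 FPKM in Control, 1.49 and 3.13 in Model and, in MUS, 10.9 and 8.33. Both MUS libraries were above all other libraries, whereas Control and Model overlapped. Its log2 fold change in MUS vs. Model was 1.72 (SE 0.30), a 4.16-fold difference in mean FPKM, and 39 of the 9794 genes tested had a higher one. It rested on 578 and 475 fragments in MUS against 74 and 170 in Model, and within batches 1 and 2 of the labels it was 2.25 and 1.18. In MUS vs. Control the log2 fold change was 2.18 (SE 0.30), or 1.83 under fragment-total scaling, while in Model vs. Control it was 0.46 (SE 0.30) and differed in sign between the batches.

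Egr2 (ENSMUSG00000037868, chr10:67535475-67542188), which carries the CArG box shown above, was at 46.8 and 47.7 FPKM in Control, 44.9 and 42.5 in Model and, in MUS, 96.2 and 72.6. The MUS libraries again exceeded the other 4. The log2 fold change in MUS vs. Model was 0.92 (SE 0.28), higher in both batches (1.08 and 0.76), and 209 genes had a higher one. In Model vs. Control it was -0.11 (SE 0.28) as deposited and -0.65 under fragment-total scaling, below Control in both libraries on each scale. Against Control, MUS gave 0.81 (SE 0.28) as deposited and 0.28 under fragment-total scaling.

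Egr3 (ENSMUSG00000033730, chr14:70077203-70082614) had 0.496 and 0.546 FPKM in Control, 0.289 and 0.352 in Model and, in MUS, 1.5 and 0.796. These values rested on 50 and 55, 18 and 24, and 100 and 57 fragments. The order of the groups was that of Egr2, with no overlap between any pair of groups. Below the filter, its MUS vs. Model value of 0.68 on the log2(FPKM + 1) scale understates the ratio of means, 3.58.

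Egr1 (ENSMUSG00000038418), the member of the family most often used to mark recent stimulation, was at 3.73 and 1.86 FPKM in Control, 7.82 and 16.3 in Model and, in MUS, 15.8 and 10.1. Both treated groups were above Control, while Model and MUS overlapped. Model vs. Control gave a log2 fold change of 1.75 (SE 0.41), or 1.32 under fragment-total scaling. It met the DEG criteria there in 7 of 17 alternative analyses, but not under that scaling. In MUS vs. Model it was 0.14 (SE 0.41), and the 2 batches differed in sign (0.93 and -0.64). MUS vs. Control gave 1.89 (SE 0.41). Both calls against Control were lost on leaving out any of several libraries, Control replicate 2 among them. Leaving out 1 library gave Model vs. Control values from 1.26 (no Model replicate 2) to 2.23 (no Model replicate 1). For MUS vs. Control they ran from 1.53 (no Control replicate 2) to 2.25 (no Control replicate 1).

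The IER genes code for small proteins of the immediate early response, of which IER3 is known as a regulator of survival and of NF-κB and ERK signalling. Ier2 (ENSMUSG00000053560, chr8:84661331-84662852) was at 15.1 and 18.6 FPKM in Control, 183 and 136 in Model and, in MUS, 64.6 and 65.6. The 3 groups did not overlap, with MUS between Control and Model. Its log2 fold change was 3.16 (SE 0.30) in Model vs. Control and 1.90 (SE 0.30) in MUS vs. Control, or 2.64 and 1.39 under fragment-total scaling. MUS vs. Model gave -1.26 (SE 0.30). In that comparison, mean FPKM was 0.409 times that of Model, lower in both batches (-1.48 and -1.04), and 116 genes had a lower value.

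Ier3 (ENSMUSG00000003541, chr17:35821684-35822923) was at 12.4 and 19.4 FPKM in Control, 209 and 143 in Model and, in MUS, 105 and 123, again with MUS between the other groups. With a log2 fold change of 3.39 (SE 0.35) in Model vs. Control, an 11.1-fold difference in mean FPKM, it had the largest value of the 9, and 153 of all genes had a higher one. Under fragment-total scaling the log2 fold change was 2.87, with means of 166 in Model and 22.0 in Control. The difference of MUS from Model was -0.60 (SE 0.35), with -0.99 and -0.21 in the batches. Ier2 and Ier3 met the DEG criteria in Model vs. Control in 17 of 17 alternatives.

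Ier5 (ENSMUSG00000056708, chr1:155096361-155099636) had a narrower range, at 26.7 and 19.2 FPKM in Control, 51.2 and 29.6 in Model and, in MUS, 27.4 and 24.2. Model was above both other groups without overlap as deposited. Model vs. Control gave a log2 fold change of 0.76 (SE 0.34), but 0.23 with overlapping libraries under fragment-total scaling. Against Control, MUS gave 0.18 (SE 0.34), which turned to -0.34 under that scaling. The difference of MUS from Model was -0.58 (SE 0.34), and -0.57 under that scaling.

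The KLF genes went different ways. Klf6 (ENSMUSG00000000078, chr13:5861482-5870394) was at 73.8 and 109 FPKM in Control, 519 and 389 in Model and, in MUS, 456 and 385, so that Model and MUS overlapped well above Control. Its log2 fold change was 2.32 (SE 0.37) in Model vs. Control and 2.21 (SE 0.37) in MUS vs. Control, or 1.77 and 1.68 under fragment-total scaling. MUS vs. Model gave -0.10 (SE 0.37). Klf6 was a DEG in Model vs. Control in 16 of 17 alternatives, and 98 of all genes tested had a higher mean level in Model.

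Klf2 (ENSMUSG00000055148, chr8:72319033-72321656), the quiescence-associated member, was at 4.71 and 5.04 FPKM in Control, 2.46 and 2.59 in Model and, in MUS, 2.26 and 1.77. Both treated groups were below Control, and both MUS libraries below Model. The log2 fold change was -0.74 (SE 0.20) in Model vs. Control and -0.97 (SE 0.20) in MUS vs. Control, short of the fold needed for a DEG. Under fragment-total scaling the values were -1.19 and -1.42, and Klf2 then met the criteria in both. MUS vs. Model gave -0.23 (SE 0.20).

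Klf4 (ENSMUSG00000003032, chr4:55527143-55532466) was at 4.96 and 1.78 FPKM in Control, 2.21 and 1.33 in Model and, in MUS, 2.28 and 2.26. The Control libraries were far apart, with MUS inside their range and Model reaching below it as deposited, while both treated groups lay below both Control libraries under fragment-total scaling. Its Model vs. Control value was -0.57 (SE 0.37), or -0.99 under that scaling. It was -1.12 without Control replicate 2, where it met the DEG criteria, and -0.02 without Control replicate 1, where it did not. The MUS vs. Control value was -0.32 (SE 0.37), or -0.73 under that scaling, and turned to 0.24 without Control replicate 1. Of its transcript stretches of 50 bases, 0.263% also occur in another gene, against 0% for the other 9 members.

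**Figure D4:**
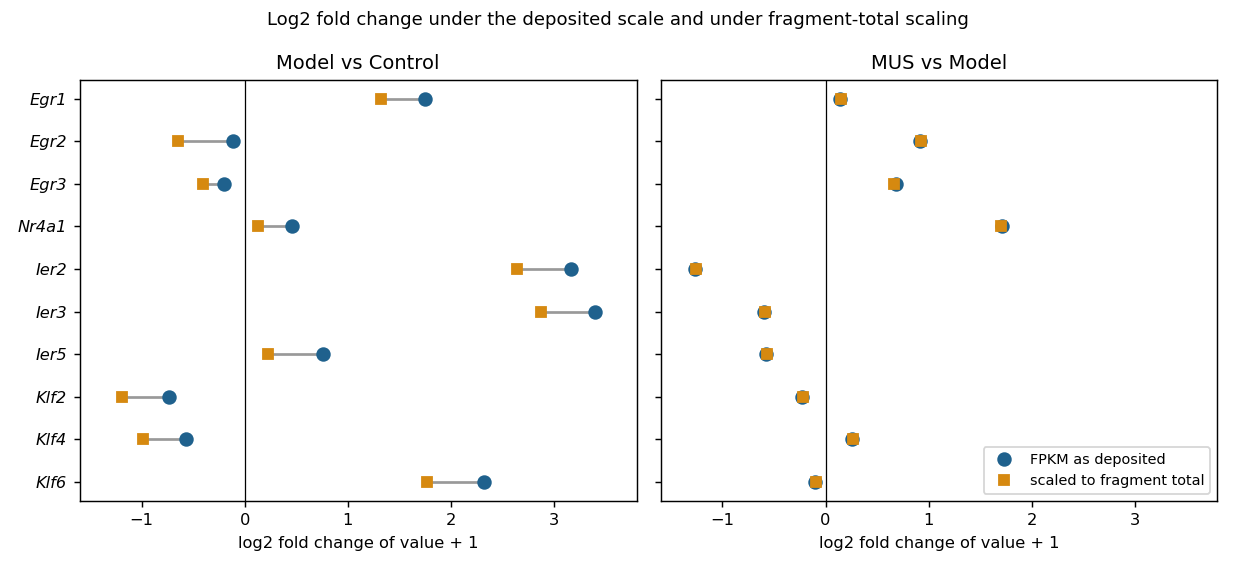
Log2 fold change of value + 1 for the 10 genes with FPKM as deposited (circles) and after scaling to the fragment total of each library (squares), for Model vs. Control beside MUS vs. Model. Squares lie left of circles in Model vs. Control, as for Egr2 (-0.11 and -0.65), and on top of them in MUS vs. Model, as for Nr4a1 (1.72 and 1.70).

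Relatives, regulators and further immediate early genes were listed by name, 57 genes in 4 lists, of which 46 passed the filter. In Model vs. Control, limma called 10 of them upregulated and 6 downregulated, or 10 and 12 under fragment-total scaling. Of all 9794 genes, 9.5% and 5.56% were called as deposited, and 646 and 1554 genes under that scaling. For MUS vs. Model it called 0, with 6 of the 46 at an unadjusted p under 0.05, against 825 of all 9794, and 0 by limma-voom. MUS vs. Control had 13 upregulated and 8 downregulated, or 10 and 14 under fragment-total scaling, against 11.3% and 8.91% of all genes as deposited and 738 and 1953 genes under that scaling. Without MUS replicate 1 these 21 calls came to 1, without MUS replicate 2 to 11 and without Control replicate 1 to 13. Without Control replicate 1 or Model replicate 1, the 16 calls of Model vs. Control came to 8 or 9.

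Of the 6 relatives and partners of the EGR, IER and NR4A genes, 3 were tested. Nr4a3, another orphan receptor of the NR4A family, rose from 0.11 and 0.423 FPKM in Control to 4.19 and 4.50 in Model, and was at 8.17 and 6.42 in MUS. By limma its log2 fold change was 2.09 (SE 0.23, adjusted p = 0.00317) in Model vs. Control and 2.71 (SE 0.23, adjusted p = 0.00133) in MUS vs. Control. In MUS vs. Model it was 0.63 (SE 0.23, adjusted p = 0.513), with both MUS libraries above both Model libraries. Nr4a2, the other family member, was below the filter, at 0.571 and 0.366 FPKM in Control, 0.786 and 0.493 in Model and, in MUS, 1.5 and 1.17. Nab1, a corepressor that binds EGR proteins, rose in MUS vs. Control by 1.07 (SE 0.28, adjusted p = 0.0319, limma), but fragment-total scaling gave 0.56 with an adjusted p of 0.14. Nab2, of the same list, went the other way there, at -0.97 (SE 0.29, adjusted p = 0.0492, limma), short of the fold for a DEG. Under fragment-total scaling Nab2 was at -1.37 with an adjusted p of 0.0211 by limma.

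Among the 14 other KLF factors, 8 were tested. Klf8 rose in Model vs. Control, with a log2 fold change of 1.39 (adjusted p = 0.0106), and Klf10, which is induced by TGF-β, fell by 1.14 (adjusted p = 0.0142), both by limma. In MUS vs. Control, Klf8 rose by 1.34 (adjusted p = 0.0093), whereas Klf16 fell by 1.48 (adjusted p = 0.00915) and Klf10 by 1.40 (adjusted p = 0.00614). Klf10 was at 15.6 and 17.5 FPKM in Control, 6.63 and 7.21 in Model and, in MUS, 5.38 and 5.89.

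Of the 18 upstream kinases and factors tested, limma called 2 upregulated and 4 downregulated in Model vs. Control, against 9.5% and 5.56% of all genes. By sign alone, 8 were higher and 10 lower. Map2k1, the ERK kinase MEK1, rose from 24.6 and 36.3 FPKM to 201 and 154, a log2 fold change of 2.52 (adjusted p = 0.00499), and Map3k8, the kinase TPL2 that activates MEK1 downstream of LPS, rose by 2.08 (adjusted p = 0.00483). Mef2d (-1.91, adjusted p = 0.0251), Mkl1 (-1.82, adjusted p = 0.019) and Mkl2 (-1.42, adjusted p = 0.00885) fell. MEF2D is a partner of MAP kinase signalling, and MKL1 and MKL2 are coactivators of SRF. In MUS vs. Control, 2 were called upregulated and 5 downregulated, against 11.3% and 8.91% of all genes, while 6 were higher and 12 lower by sign alone. The calls were led by Map2k1 (2.44, adjusted p = 0.00448) and Map3k8 (1.58, adjusted p = 0.00874) upward. Downward, Mef2d (-2.16, adjusted p = 0.0133), Mkl1 (-2.08, adjusted p = 0.00951) and Mapk3, the ERK1 kinase (-1.63, adjusted p = 0.0346), led. All these p are from limma.

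Of 17 other immediate early genes tested, limma called 6 upregulated and 1 downregulated in Model vs. Control, against 9.5% and 5.56% of all genes. By sign alone, 13 were higher and 4 lower. Csrnp1 (2.54, adjusted p = 0.00326), Zfp36 (2.35, adjusted p = 0.00849) and Dusp1 (2.09, adjusted p = 0.00655) had the largest increases by limma. ZFP36 promotes the decay of cytokine messenger RNAs, and DUSP1 is a phosphatase that inactivates MAP kinases. Jun, a subunit of AP-1, fell from 49.6 and 28.6 FPKM to 9.62 and 13.8, a log2 fold change of -1.63 (SE 0.34, adjusted p = 0.022). MUS vs. Control had 8 called upregulated and 1 called downregulated, against 11.3% and 8.91% of all genes. By sign alone, 10 were higher and 7 lower. By limma, Dusp1 was at 2.52 (adjusted p = 0.00324), Csrnp1 at 2.27 (adjusted p = 0.00368), Zfp36 at 2.27 (adjusted p = 0.00742) and Jun at -2.03 (adjusted p = 0.00849). The median log2 fold change of this list was 0.74 in Model vs. Control and -0.08 in MUS vs. Model, where that of all genes was 0.04 and 0.01.

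**Figure D5:**
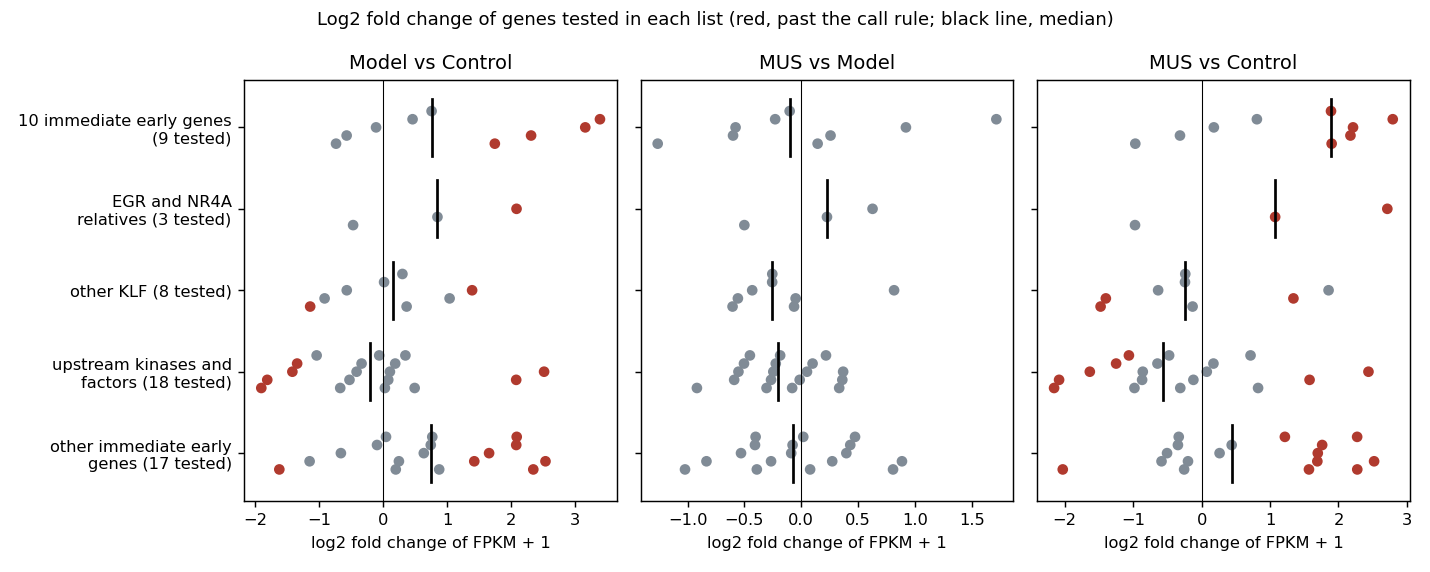
Log2 fold change of FPKM + 1 of each tested gene in 5 lists and 3 comparisons. Points are genes, red where they met the DEG criteria, and black lines are medians. Each list holds genes on both sides of 0 in every comparison, and no point is red in MUS vs. Model.

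For each member, the gene outside the set with the highest Pearson correlation of log2(FPKM + 1) over the 6 libraries was sought among 9784 genes. The points are 6 libraries of 3 groups, so a high r mainly states a like order of groups. Klf6 was most like Ccl2 (r = 0.9997), a monocyte chemokine at 5.92 and 19.4 FPKM in Control and between 598 and 1400 in the treated groups. Nr4a1 was most like Rrp1 (r = 0.996), a nucleolar protein gene at 19.9 and 18.5 FPKM in Control, 19.5 and 21.4 in Model and, in MUS, 28.9 and 27.7. Egr2 was most like Gm24261 (r = 0.990). That gene was listed at 0 in Control and Model and at 8.27 and 2.37 FPKM in MUS, so it passed the filter through MUS alone. The others were Gm14287 for Egr1 (r = 0.988), Eif2b1 for Egr3 (0.986), Has1 for Ier2 (0.995), Cds1 for Ier3 (0.999), Laptm4a for Ier5 (0.989), Nupl2 for Klf2 (0.995) and Alox5ap for Klf4 (0.988). Among the members themselves, Egr2 and Egr3 (r = 0.96), Nr4a1 and Egr2 (r = 0.90) and Ier3 and Klf6 (r = 0.99) were near each other, while Klf2 and Klf4 were at 0.37.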

How the data were processed

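The authors deposited 1 table of FPKM for 6 libraries made from poly-A RNA. The study's methods name RSEM for the FPKM, whereas the submitters' processing notes name HISAT2, featureCounts 1.5.0-p3 and GRCm39. The deposited gene positions, by contrast, are those of GRCm38, as 98.3% of 54409 gene identifiers had the same start and end in GENCODE M21. How these fit together, and whether counting used strand, is not given in the sources used here. No member overlaps another gene of GENCODE M21. FPKM times gene length was a whole multiple of 1 step for 100% of values (tolerance 0.1), which gave the fragments per gene. For 1 kb of gene, 3 fragments equal 0.131 to 0.213 FPKM, taken here as the limit for a listed 0, though more remains possible. This limit covers counting error only.

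For 9794 genes averaging at least 1 FPKM, log2(FPKM + 1) was fitted with limma 3.58.1 (R 4.3.3, lmFit and eBayes with trend) in 1 model of 3 groups, with 3 residual and 4.04 prior degrees of freedom and Benjamini-Hochberg adjustment over these genes. Tables and figures used pandas 2.3.3, NumPy 2.4.6 and, for plots, Matplotlib 3.10.9, under Python 3.11.15. The fit was checked on simulated data. DESeq2, the tool of the study's methods, was not run. The recovered fragments were fitted as counts with limma-voom only.

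The labels give the replicate number as a batch. Replicate differences correlated at 0.12 (Control and Model), 0.14 (Model and MUS) and -0.09 (Control and MUS) across genes, so the replicate block was an alternative only. The members and lists were chosen with earlier results of these data known. Named genes are the members, up to 3 DEGs per list and direction, and each member's most similar gene. Nr4a2, Nab2, Klf7 and Atf3 were named after their values were seen. 0 sample columns were left unused.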

Additional observations from a re-analysis of the deposited data

How the results depend on the processing

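No member's DEG call turned to the opposite direction in any alternative. Of 453 alternative values of their log2 fold changes, 362 moved by less than the spread between replicates, or not at all, and 91 by more. Adding the block, changing the filter or dropping the trend cannot move a fold. Neither can fitting only the groups compared or leaving out a library of the third group. Such unmoved values are counted in the 362, so that count does not measure stability. The alternatives were a pseudocount of 0.1, no filter, a filter of 5 FPKM, no trend, only the groups compared, the replicate block, quantile normalization, fragment-total scaling with and without the block, rescaling without mitochondrial and the 20 highest genes, limma-voom, and leaving out each library. Without a filter, where 30192 genes were tested, there were 260 DEGs in place of 1475 (members 2 in place of 4, related genes 6 in place of 16) in Model vs. Control and 456 in place of 1980 (members 2 in place of 5, related genes 7 in place of 21) in MUS vs. Control. In Model vs. Control there were 797 DEGs with only the 4 libraries compared, 2345 with fragment-total scaling and the block, 2374 with rescaling and 2734 with limma-voom, and in MUS vs. Control 3144 with limma-voom. The upregulated share of DEGs was 63.1% as deposited and 29.4% under fragment-total scaling in Model vs. Control, and 55.9% and 27.4% in MUS vs. Control. In MUS vs. Model the 0 DEGs became 1 with pseudocount 0.1, 7 with only the groups compared and 4 with the replicate block, none of them a member. The block otherwise changed the call of Klf7 in MUS vs. Control (adjusted p = 0.0642 without and 0.0202 with it) and of Atf3 (0.0377 and 0.0658), both by limma. Leaving out 1 library gave from 692 to 2077 DEGs in Model vs. Control (related genes from 8 to 20), from 0 to 31 in MUS vs. Model, and from 184 to 2398 in MUS vs. Control (members from 0 to 5, related genes from 1 to 24). The lowest values came without Model replicate 1 (692), Control replicate 1 (8) and MUS replicate 1 (184, 0 and 1), and the 31 without Model replicate 2. A group left with 1 library was assumed to vary like the others. Beyond what an alternative's construction shows, the cause was not tested. With 2 libraries a group and 18 to 170 fragments for Egr3, Nr4a1, Klf2 and Klf4 in Model, small differences of these genes were not detectable at this depth.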
